A study of Mus musculus with 18 samples.

Results

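The vacuolar proton pump (V-ATPase) has a membrane sector, V0, and accessory subunits that travel with it. The genes described here are 9 of the 54532 in the count table, taken by name: Atp6v0a1, Atp6v0a2 and Tcirg1, which encode forms of subunit a; Atp6v0b and Atp6v0c, the proteolipids of the rotor ring; Atp6v0d1 and Atp6v0e, subunits d and e; and the accessory subunits Atp6ap1 and Atp6ap2. All 9 were among the 18291 genes with enough counts to be tested. The rule is their names and uses no measured value.

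The pump uses ATP to move protons into lysosomes, endosomes, Golgi vesicles and, in some cells, out across the plasma membrane. The cytosolic V1 sector burns the ATP and turns a stalk, and the stalk turns the V0 proteolipid ring against subunit a, whose channels carry the protons. The acid it makes is needed by lysosomal hydrolases, and at the lysosome surface the pump also takes part in nutrient sensing with Ragulator and the Rag GTPases.

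The study sequenced RNA of mouse nasal mucosa from 3 groups, named CON, CRS and C10, with 6 libraries each (18 in all). CRS mice, a model of chronic rhinosinusitis (lasting inflammation of the nose and sinuses), received papain, a plant protease, into the nose: 20 µg in 20 µL on days 0 to 2 and again on days 7 to 11. The C10 group is taken to be papain mice that also received the compound C10, since the protocol describes its dosing in CRS mice: 10 µL of 10 mg/mL on each side, once a day for 10 days that began with papain. The title of the series calls the compound an APE1 inhibitor; APE1 repairs DNA and also has a redox function. What CON mice were given is not stated, nor are strain, sex, age or any engineered allele, and no label says that each library is a separate mouse. The p-values therefore measure the spread between these libraries, which may be technical in part.

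In C10 compared with CRS, all 9 genes had a log2 fold change below 0, as 48.3% of all genes did, and 2 of them passed the test across all genes. Atp6ap2, also known as the prorenin receptor, fell 1.37-fold and Atp6v0c fell 1.35-fold (edgeR, adjusted p = 0.0232 and 0.0442). Of all genes tested, 0.0656% were called lower in that comparison. In CRS compared with CON, 7 of the 9 had a log2 fold change above 0 (50.8% of all genes) and 2 below (49.2%), and 0 passed, where 0.00547% of all genes were called higher and 0% lower. In C10 compared with CON, all 9 lay below 0 (47.4% of all genes) and 0 passed, where 0.115% of all genes were called lower. Both comparisons with CRS use the same CRS libraries, so a high CRS value raises one difference and lowers the other.

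The sequences around the starts of 5 of these genes are shown. Atp6ap2 and Atp6v0c were taken because they passed the test in C10 compared with CRS. The other 3 did not pass and were taken because their promoters hold the E-box core. That core is bound by transcription factors of the MiT/TFE family, known regulators of lysosomal genes. Each sequence is the strand of the gene, 250 bases before to 30 bases after the RefSeq transcript start (build GRCm38.p6). It is in lower case with every CACGTG in capitals. They lie at chr4:117887300-117887579 (minus strand) for Atp6v0b, chr8:105566035-105566314 (minus) for Atp6v0d1, chr17:26676146-26676425 (plus) for Atp6v0e, chr17:24169649-24169928 (minus) for Atp6v0c and chrX:12587509-12587788 (plus) for Atp6ap2.
Atp6v0b: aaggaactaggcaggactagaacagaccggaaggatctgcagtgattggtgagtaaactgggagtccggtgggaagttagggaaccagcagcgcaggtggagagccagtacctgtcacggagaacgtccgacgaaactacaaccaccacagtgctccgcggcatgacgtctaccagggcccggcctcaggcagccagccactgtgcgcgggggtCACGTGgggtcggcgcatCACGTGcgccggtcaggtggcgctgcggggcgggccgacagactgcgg
Atp6v0d1: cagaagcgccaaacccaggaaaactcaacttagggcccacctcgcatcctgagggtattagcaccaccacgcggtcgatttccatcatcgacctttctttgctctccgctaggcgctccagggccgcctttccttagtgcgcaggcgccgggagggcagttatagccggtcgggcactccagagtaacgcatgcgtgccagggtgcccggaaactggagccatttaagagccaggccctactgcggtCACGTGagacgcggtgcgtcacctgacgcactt
Atp6v0e: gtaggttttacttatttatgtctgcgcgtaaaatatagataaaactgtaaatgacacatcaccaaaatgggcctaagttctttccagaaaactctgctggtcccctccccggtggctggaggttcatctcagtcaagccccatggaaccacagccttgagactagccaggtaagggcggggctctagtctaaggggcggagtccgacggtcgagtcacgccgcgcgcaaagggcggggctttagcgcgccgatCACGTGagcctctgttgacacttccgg
Atp6v0c: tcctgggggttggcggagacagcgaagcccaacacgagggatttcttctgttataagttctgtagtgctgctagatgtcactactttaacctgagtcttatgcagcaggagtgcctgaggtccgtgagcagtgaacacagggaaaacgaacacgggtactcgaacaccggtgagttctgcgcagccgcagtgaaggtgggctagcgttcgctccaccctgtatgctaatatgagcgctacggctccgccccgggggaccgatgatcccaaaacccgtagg
Atp6ap2: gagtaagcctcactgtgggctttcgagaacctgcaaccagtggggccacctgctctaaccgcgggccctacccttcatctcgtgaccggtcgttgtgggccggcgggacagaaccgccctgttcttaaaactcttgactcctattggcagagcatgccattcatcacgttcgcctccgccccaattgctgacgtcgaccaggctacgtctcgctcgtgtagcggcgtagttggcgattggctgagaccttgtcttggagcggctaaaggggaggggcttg

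Windows of 250 bases before to 50 after a start were on hand for 8 of the 9 genes (12 windows), and none for Atp6v0a2. CACGTG, a palindrome that reads the same on both strands, was found in the windows of 3 of the 8. In Atp6v0b it began at bases -36 and -18 from the start, in Atp6v0d1 at -3 and in Atp6v0e at 4. Of all 32851 windows of this length 7.15% held it, and of the 27025 gene symbols with a window 8.09% had it in at least 1. The window of Atp6v0a1 starts from a transcript start 946 bases from the gene start in the count table. The longer form TCACGTGA, which contains the core, was in Atp6v0d1 and Atp6v0e and in 0.974% of all windows; GTCACGTGAC, which contains both, was in 0 of the 8 and in 0.326% of all windows. The 2 genes that passed the test in C10 compared with CRS, Atp6v0c and Atp6ap2, had no match in the windows. Atp6v0b, Atp6v0d1 and Atp6v0e had at least 1. In that comparison the log2 fold changes were -0.43 and -0.45 for the former and -0.48, -0.28 and -0.40 for the latter. Atp6v0b was close to the threshold (edgeR adjusted p = 0.0549), so the falls do not separate the genes by this core. A match is a description of the letters and not of binding.

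Counts summed to between 16510920 and 18433866 per CON library, to between 16531779 and 17523368 per CRS library and to between 15883573 and 18128186 per C10 library. The counts of the 9 genes ran from 496 (Atp6v0c) to 4852 (Atp6ap2) per library, far above 3 counts, taken as the floor. Summed markers of nasal mucosa were present in all groups: mature olfactory neuron markers at 3114 to 9271 CPM (counts relative to library size), sustentacular and Bowman gland markers at 7074 to 15659 CPM and ciliated cell markers at 460.1 to 1049 CPM. The first principal component, 32.7% of the variance, set apart 3 CRS libraries: scores were -80.9 for CRS 2, -59.1 for CRS 5 and 64.6 for CRS 1, while CON and C10 scores lay between -32.0 and 49.5. Therefore counts of calls that rest on CRS are also given without them. In tissue RNA, fewer cells of a type and less RNA per cell cannot be told apart.

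Per unit of the gene length in the deposited table, the accessory subunits had the highest levels of the 9 genes in each group. In CON, Atp6ap2 stood at 78.1 ± 7.34 FPKM (fragments relative to gene length and library size) and Atp6ap1 at 75.8 ± 4.55 (SD, n = 6), a difference smaller than either spread. Atp6v0d1 (63.5 ± 4.47 FPKM) and Atp6v0b (61.1 ± 3.18 FPKM) followed and did not differ beyond their spread. The next were Atp6v0e at 23.3 ± 3.58 FPKM, Atp6v0a1 at 20.4 ± 1.26 and Tcirg1 at 17.8 ± 5.64, whose ranges overlap. Atp6v0a2 (12.4 ± 1.16 FPKM) and Atp6v0c (12.2 ± 0.881 FPKM) were lowest. The order depends on the lengths used. The deposited table divides Atp6v0c counts by 3384 bases, where the longest coding transcript in GENCODE M21 has 1183. Its FPKM is therefore lower than a transcript-based value would be. Atp6v0b counts are divided by 2051 bases (longest coding transcript 1000), those of Atp6ap2 by 2618 (2324) and those of Atp6ap1 by 3026 (2189). The place of the accessory subunits above Atp6v0b therefore also depends on these lengths. The order of the first and second gene was the same in CRS and C10, while Atp6v0b stood above Atp6v0d1 in CRS (73.5 ± 8.47 against 66.7 ± 4.94 FPKM) and below it in CON and C10.

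**Figure D1:**
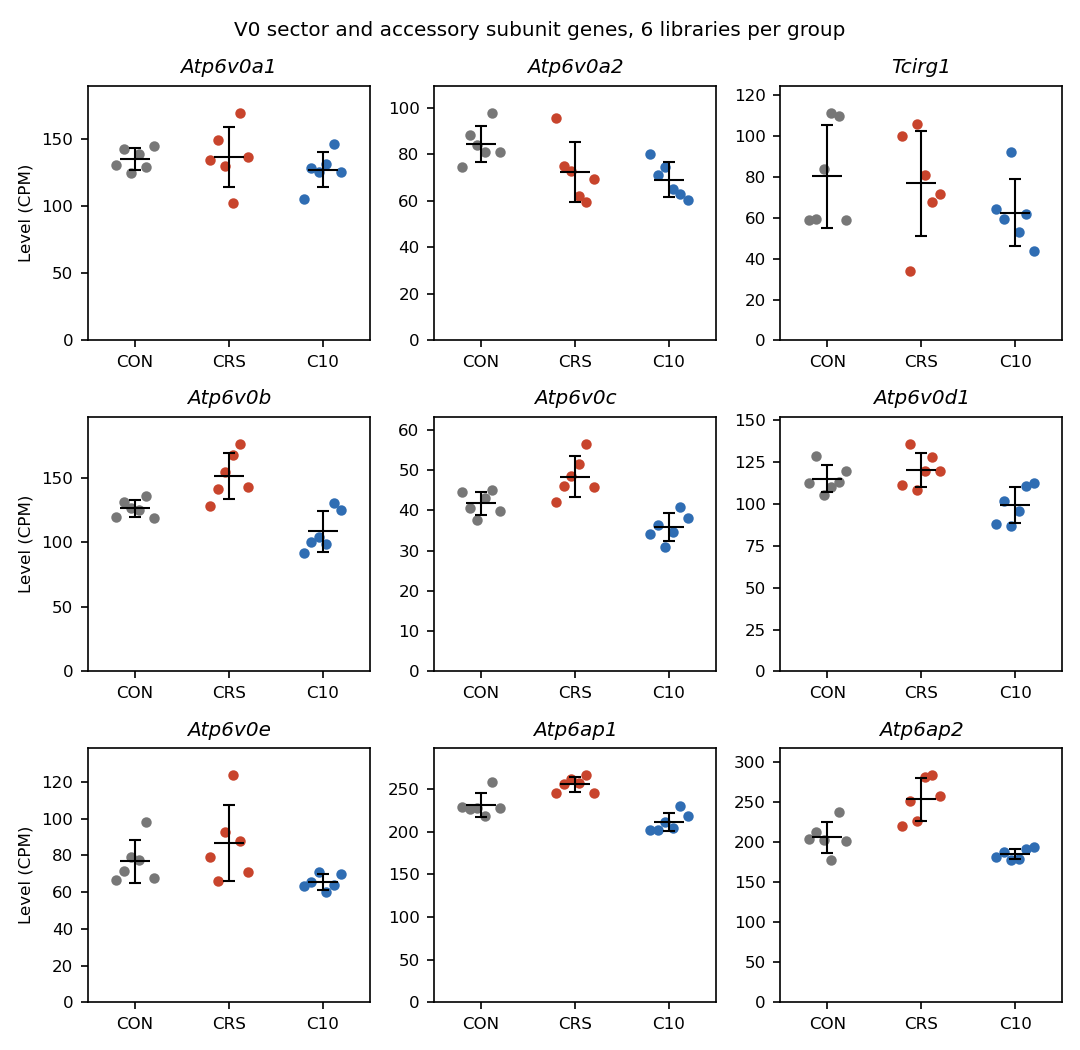
Level of each gene in CPM (vertical axes start at 0 and differ between panels) in the 6 libraries of CON, CRS and C10; points are libraries in replicate order and bars the mean ± SD. For Atp6ap2, Atp6ap1 and Atp6v0c every C10 point lies below every CRS point, while the Tcirg1 points of the 3 groups overlap widely.

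Within C10 the accessory subunits differed least relative to their levels: the SD was 3.64% of the mean for Atp6ap2 and 5.24% for Atp6ap1. Within CRS Atp6ap1 differed least (3.34%), while Atp6ap2 (10.49%) lay above Atp6v0d1 (8.48%) and Atp6v0c (10.37%). Atp6ap2 (chrX:12587801-12617049, plus strand, mm10) encodes a protein that helps the pump assemble and is cut in the secretory pathway. It measured 178, 203 and 238 CPM (lowest, median and highest library) in CON, 220.3, 254 and 284 in CRS, and 177, 185 and 194 in C10. The 6 C10 libraries lay in a narrow band below all 6 CRS libraries, and CRS overlapped CON. The mean was 253 ± 26.6 CPM in CRS and 185 ± 6.75 in C10 (SD, n = 6), a log2 fold change of -0.45 ± 0.08 (SE; edgeR adjusted p = 0.0232). Between CRS and CON it was 0.30 ± 0.08 (adjusted p = 0.206), with 6 of 6 CRS libraries above the CON median. Between C10 and CON it was -0.15 ± 0.08 (adjusted p = 0.398).

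Atp6ap1 (chrX:74297097-74304721, plus strand) encodes Ac45, a glycoprotein inside the V0 ring. Its lowest, median and highest libraries were 218, 228 and 258 CPM in CON, 245, 257 and 266 in CRS and 202, 208 and 230.0 in C10. C10 and CRS did not overlap, and the low end of CRS lay below the single highest CON library, CON 5. With -0.27 ± 0.06 on the log2 scale in C10 compared with CRS it did not pass (edgeR adjusted p = 0.0728). The differences were 0.14 ± 0.06 for CRS against CON (adjusted p = 0.281) and -0.13 ± 0.06 for C10 against CON (adjusted p = 0.325).

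The rotor ring is built from the proteolipids. Atp6v0c (chr17:24163866-24169702, minus strand), subunit c, measured 37.5, 41.8 and 44.9 CPM (lowest, median, highest) in CON, 42.1, 47.2 and 56.4 in CRS and 30.9, 35.6 and 40.9 in C10. The highest C10 library lay below the lowest CRS library. Its mean was 48.4 ± 5.01 CPM in CRS and 35.8 ± 3.46 in C10, a log2 fold change of -0.43 ± 0.08 (edgeR adjusted p = 0.0442). CRS against CON gave 0.21 ± 0.08 (adjusted p = 0.260), and C10 against CON gave -0.22 ± 0.08 (adjusted p = 0.257). The table also lists the pseudogenes Atp6v0c-ps2, at 8 to 30 counts per library, and Atp6v0c-ps1 at 0, where Atp6v0c had at least 496. How reads that match more than 1 copy were counted is not stated, so the Atp6v0c counts are uncertain to that extent.

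Atp6v0b (chr4:117884326-117887333, minus strand), subunit c'', measured 119, 126 and 136 CPM in CON, 129, 148 and 176 in CRS and 91.8, 102 and 130.2 in C10. All 6 C10 libraries lay below the CRS median, and C10 5 at 130.2 CPM reached above the lowest CRS library. The log2 fold change of C10 against CRS, -0.48 ± 0.09, was the lowest of the 9 genes, and it missed the threshold (edgeR adjusted p = 0.0549). It passed with the replicate number as a block (-0.49, adjusted p = 0.0405) and in 14 of the 29 alternative fits in all. CRS against CON gave 0.26 ± 0.09 (adjusted p = 0.243) and C10 against CON -0.22 ± 0.09 (adjusted p = 0.315).

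Subunits d and e sit on and beside the ring. Atp6v0d1 (chr8:105524465-105566047, minus strand), which joins the ring to the turning stalk, measured 106, 113 and 129 CPM in CON, 108, 120 and 136 in CRS and 86.8, 98.7 and 112 in C10. All 6 C10 libraries lay below the medians of both other groups, with overlap at the edges. The log2 fold change was -0.28 ± 0.08 against CRS (edgeR adjusted p = 0.148), -0.21 ± 0.08 against CON (adjusted p = 0.262), and 0.07 ± 0.08 for CRS against CON (adjusted p = 0.725).

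Atp6v0e (chr17:26676396-26699644, plus strand), the small subunit e, measured 66.6, 74.4 and 98.3 CPM in CON, 66.1, 83.3 and 124 in CRS and 60.0, 64.5 and 71.1 in C10. The C10 libraries were close together, at an SD of 4.27 CPM, and the CRS libraries wide apart, at 20.6 CPM. C10 against CRS gave -0.40 ± 0.13 on the log2 scale (edgeR adjusted p = 0.190), C10 against CON -0.23 ± 0.13 (adjusted p = 0.458) and CRS against CON 0.18 ± 0.13 (adjusted p = 0.547).

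Subunit a forms the proton path and directs the pump to a compartment. Atp6v0a1 (chr11:101009452-101063719, plus strand), the most common form in neurons, measured 124, 134 and 145 CPM in CON, 102, 135 and 169 in CRS and 105, 127 and 146 in C10. These groups overlap through most of their range. Its log2 fold change was 0.02 ± 0.10 for CRS against CON (95% interval -0.19 to 0.23; edgeR adjusted p = 0.947) and -0.11 ± 0.10 for C10 against CRS (-0.32 to 0.10; adjusted p = 0.701). C10 against CON gave -0.09 ± 0.10 (adjusted p = 0.741).

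Atp6v0a2 (chr5:124628576-124724455, plus strand), the form of Golgi and endosomes, measured 74.8, 82.6 and 97.7 CPM in CON, 59.5, 71.1 and 95.9 in CRS and 60.3, 68.2 and 80.2 in C10. It was the gene with a CRS mean furthest below CON: 72.5 ± 12.9 against 84.5 ± 7.83 CPM, with CRS 1 at 95.9 CPM well above the other CRS libraries. The log2 fold change was -0.22 ± 0.10 for CRS against CON (edgeR adjusted p = 0.353), -0.29 ± 0.10 for C10 against CON (adjusted p = 0.257) and -0.07 ± 0.10 for C10 against CRS (adjusted p = 0.845).

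Tcirg1 (chr19:3896050-3907133, minus strand) encodes the a3 form, which osteoclasts use to acidify bone and which macrophage lysosomes also carry. It measured 58.7, 71.7 and 111 CPM in CON, 33.8, 76.4 and 106 in CRS and 43.7, 60.5 and 92.3 in C10. The spread within a group, with SDs of 25.2, 25.9 and 16.4 CPM, was the widest of the 9 genes relative to the mean. No difference passed (edgeR): -0.07 ± 0.24 for CRS against CON (adjusted p = 0.927), -0.30 ± 0.25 for C10 against CRS (adjusted p = 0.650) and -0.36 ± 0.24 for C10 against CON (adjusted p = 0.541). The 95% interval for C10 against CRS, -0.82 to 0.22, includes the size of the fall of Atp6ap2.

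**Figure D2:**
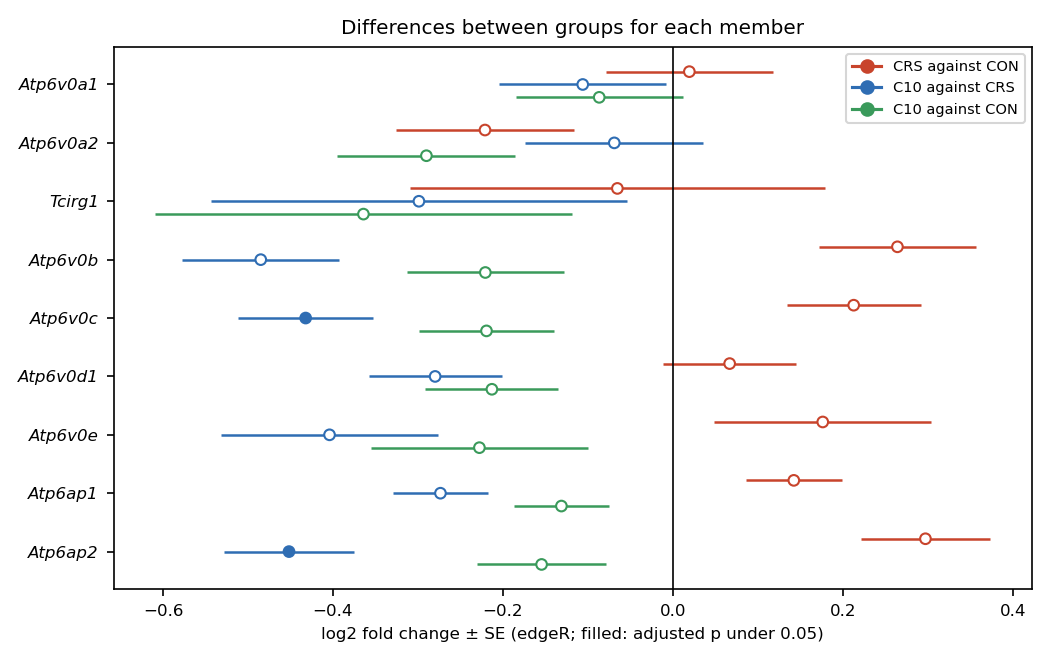
Log2 fold change ± SE of each gene in the 3 comparisons (edgeR, all 18 libraries); filled points have an adjusted p under 0.05. Every point for C10 against CRS lies below 0, and Atp6ap2 (-0.45) and Atp6v0c (-0.43) are filled; the points for CRS against CON run from -0.22 to 0.30.

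Set against CRS, the C10 group shows what differed in papain mucosa given the compound. The median log2 fold change of the 9 genes was -0.30, against 0.01 over all genes tested, and 6 of the 9 had an unadjusted p under 0.05 (7.41% of all genes were lower by that rule). In 3 genes, Atp6v0c, Atp6ap1 and Atp6ap2, the groups did not overlap, as in 0.525% of all genes in that direction. By p-value Atp6ap2 ranked 10, Atp6v0c 14, Atp6v0b 16 and Atp6ap1 31 of 18291. The calls are near the threshold: fitted to the 2 groups alone 0 passed, while DESeq2 and limma-voom each called 5, where they called 1.23% and 1.75% of all genes lower. Without CRS 2 and 5 the calls were 3, and without CRS 1, 2 and 5 also 3, with Atp6v0b added. These 2 fits also called more of all genes lower, 0.337% and 0.195%. The call of Atp6ap2 was lost on leaving out CRS 6 or C10 1, 2, 3 or 4 (adjusted p = 0.0588 to 0.0813), and that of Atp6v0c on leaving out CON 1, 2, 4 or 6, CRS 3, 4, 5 or 6, or C10 1, 2, 3, 4 or 6 (0.0507 to 0.110).

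Markers of epithelial cells lay in the same direction as the called genes in both comparisons with CRS libraries. All 6 of 6 (Epcam, Cdh1, Krt5, Krt8, Krt14 and Krt18) had a log2 fold change below 0 in C10 against CRS (median -0.25) and above 0 in CRS against CON (median 0.19), with 0 called by edgeR and 3 at an unadjusted p under 0.05 in each. Their summed level was 1733 to 2004 CPM in CON, 1874 to 2324 in CRS and 1654 to 1956 in C10, with no marker at 0. Within groups the sum had a correlation of 0.39 with Atp6ap2 and 0.42 with Atp6v0c over the 18 libraries (permutation, adjusted p = 0.243 and 0.231). Ciliated cell markers lay the other way: 7 of 8 were above 0 in C10 against CRS (median 0.36, 4 at an unadjusted p under 0.05) and 7 of 8 below 0 in CRS against CON (median -0.40, 3 at that p), with 0 called by edgeR in either. Their summed level was 662 to 932 CPM in CON, 460.1 to 697 in CRS and 483 to 1049 in C10, and no marker was at 0. Within groups this sum had a negative relation with Atp6v0c (r = -0.61, rho = -0.59; permutation p = 0.0112 and 0.0103, adjusted p = 0.0449 and 0.0462; r = -0.48 without the 2 farthest libraries) and gave r = -0.30 with Atp6ap2 (permutation, adjusted p = 0.231). Nasal gland markers lay in the direction of the epithelial ones. Above 0 in CRS against CON were 7 of 7 tested (median 0.55), and 6 of 7 were below 0 in C10 against CRS (median -0.29). In both, 0 were called by edgeR and 0 had an unadjusted p under 0.05. Within groups their sum gave r = 0.46 with Atp6v0c and 0.33 with Atp6ap2 (permutation, adjusted p = 0.191 and 0.361). All fibroblast (8), endothelial (6) and osteoblast (6) markers lay below 0 in C10 against CON (medians -0.74, -0.54 and -0.98). All did so in CRS against CON too (medians -0.57, -0.50 and -0.31). In C10 against CRS 6 of 8, 3 of 6 and 6 of 6 lay below 0 (medians -0.22, 0.01 and -0.56). By edgeR 0 were called in each, and at an unadjusted p under 0.05 were 7, 4 and 3 in C10 against CON. The part of the content of any of these cell types in the falls was not tested.

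Set against CON, the CRS group shows what differed in papain mucosa. Of the 9 genes 7 lay above 0 and Atp6v0a2 and Tcirg1 below, with a median of 0.14 (all genes: 0.00) and a range of -0.22 to 0.30. At an unadjusted p under 0.05, 4 were higher (Atp6ap2, Atp6v0b, Atp6v0c and Atp6ap1) and 1 lower (Atp6v0a2), where all genes gave 7.75% and 6.3%. The groups did not overlap in 0 of the 9 genes, against 0.383% of all genes with CRS higher and 0.279% with CRS lower. With 0 called by edgeR and by limma on FPKM, DESeq2 and limma-voom each called 1, Atp6ap2 (adjusted p = 0.0255 and 0.0135), where they called 0.634% and 2.16% of all genes higher. One library decides this count: without CRS 1 edgeR called Atp6ap2 higher (0.33, adjusted p = 0.0241) and Atp6v0a2 lower (-0.32, adjusted p = 0.0463), in a fit that called 596 genes lower and 398 higher. Without CRS 2 and 5, and without CRS 1, 2 and 5, 0 were called. Of all genes, these fits called 0 and 83 lower and 1 and 111 higher, in that order.

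C10 was also set against CON, treated papain mucosa against control. The 9 genes ran from -0.36 (Tcirg1) to -0.09 (Atp6v0a1), with a median of -0.22 against 0.01 over all genes. Here 5 genes had an unadjusted p under 0.05, all lower (Atp6v0a2, Atp6v0b, Atp6v0c, Atp6v0d1 and Atp6ap1; 6.83% of all genes), and 0 had groups that did not overlap (1.08% of all genes). None of the 29 alternative fits called any of the 9.

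The V0 genes with restricted paralogs were also read as shares of their subunit. These shares depend on the gene lengths used, as the order by FPKM does. Among subunit d genes Atp6v0d1 held 88.1 ± 3.85% of the summed FPKM in CON, 88.5 ± 3.88% in CRS and 91.9 ± 2.68% in C10 (SD, n = 6), and the rest was Atp6v0d2, the form of osteoclasts and macrophages. Atp6v0d2 measured 14.7, 23.1 and 34.7 CPM (lowest, median, highest) in CON, 14.5, 23.8 and 32.6 in CRS and 9.32, 12.0 and 17.8 in C10. Its C10 values lay mostly below the other groups. The log2 fold change of -0.86 ± 0.24 against CRS was larger than that of any of the 9 genes and did not pass (edgeR adjusted p = 0.151); against CON it was -0.87 ± 0.24 (adjusted p = 0.152), and for CRS against CON -0.01 ± 0.24 (adjusted p = 0.987).

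Among subunit a genes the mean shares in CON were 35.5 ± 3.99% for Atp6v0a1, 30.3 ± 6.91% for Tcirg1, 21.6 ± 1.57% for Atp6v0a2 and 12.6 ± 2.35% for Atp6v0a4, the form of kidney and other acid-secreting epithelia. In C10 they were 37.9, 26.9, 20.1 and 15.2%, and each lay within the range of the CON libraries. Subunit e was split between Atp6v0e (53.9 ± 7.39% in CON, 47.3 ± 6.06% in C10) and Atp6v0e2. Neither Atp6v0a4 (-0.16 ± 0.12 in C10 against CRS, edgeR adjusted p = 0.618) nor Atp6v0e2 (-0.01 ± 0.16, adjusted p = 0.989) passed.

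**Figure D3:**
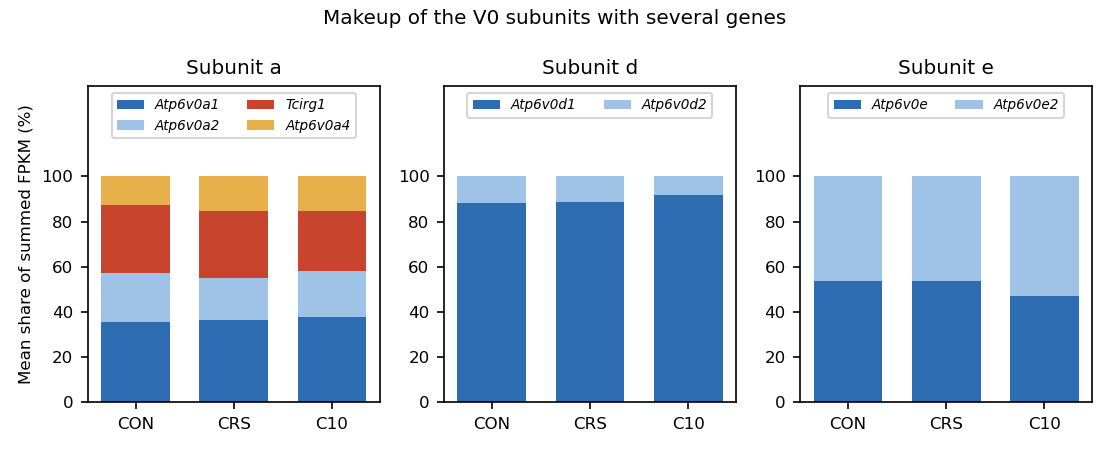
Stacked mean share (% of summed FPKM, vertical axis) of each gene among the genes of subunits a, d and e in CON, CRS and C10 (n = 6 each). Atp6v0d1 holds 88.1 to 91.9% of subunit d, while subunit a is split among 4 genes. Of these Atp6v0a1 has the highest mean share in each group, with library values that overlap those of Tcirg1.

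The V1 sector, the cytosolic motor that V0 anchors, had 11 of 13 listed genes tested. In C10 against CRS all 11 lay below 0 with a median of -0.33, 9 had an unadjusted p under 0.05 and 1 was called: Atp6v1c1, the subunit that V1 loses on detaching from V0, fell from 64.7 ± 4.47 to 50.7 ± 2.77 CPM (-0.35 ± 0.06; edgeR adjusted p = 0.0284). In CRS against CON all 11 lay above 0 (median 0.20), with 7 at an unadjusted p under 0.05 and 0 called. The smallest p belonged to Atp6v1g1 (0.46 ± 0.11, adjusted p = 0.206) and Atp6v1f (0.42 ± 0.13, adjusted p = 0.226). In C10 against CON 8 lay below and 3 above 0, with a median of -0.06 and 0 called, 2 at an unadjusted p under 0.05. Atp6v1c1 was at -0.28 ± 0.06 (edgeR adjusted p = 0.0827) and Atp6v1b2 at -0.14 ± 0.06 (adjusted p = 0.333). Shares of all genes, for this list and those that follow, are these. In C10 against CRS 48.3% lay below 0, 7.41% were lower at an unadjusted p under 0.05 and 0.0656% were called lower. For C10 against CON these were 47.4%, 6.83% and 0.115%. For CRS against CON 50.8% lay above 0, and 7.75% were higher and 6.3% lower at that p.

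Factors that assemble V0 in the endoplasmic reticulum or bind it loosely (5 of 6 tested) had 0 called in each comparison, with 2, 2 and 1 at an unadjusted p under 0.05 for CRS against CON, then C10 against CRS, then C10 against CON. Their medians were 0.16, -0.15 and 0.13 in that order, which is kept for the lists that follow. Ccdc115, an assembly factor, measured 0.34 ± 0.10 in CRS against CON (edgeR adjusted p = 0.218) and -0.29 ± 0.10 in C10 against CRS (adjusted p = 0.216). Beside it stood Tmem199, its partner, in the former (0.37 ± 0.12, adjusted p = 0.229), Tmem9b in the latter (-0.15 ± 0.06, adjusted p = 0.257), and Vma21 (0.20 ± 0.08, adjusted p = 0.297) and Tmem9b (-0.09 ± 0.06, adjusted p = 0.513) in C10 against CON.

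Proteins that regulate the joining of V1 to V0 (8 of 9 tested) also had 0 called, with 3, 1 and 0 at an unadjusted p under 0.05. Their medians were -0.04, 0.09 and 0.00, against 0.00, 0.01 and 0.01 over all genes. Ncoa7, a V-ATPase interactor, measured -0.29 ± 0.11 in CRS against CON (edgeR adjusted p = 0.279) and 0.28 ± 0.11 in C10 against CRS (adjusted p = 0.294). The next by p were Tbc1d24 (-0.21 ± 0.09, adjusted p = 0.324) in the former and Oxr1 in the latter (0.13 ± 0.07, adjusted p = 0.435); in C10 against CON they were Oxr1 (0.14 ± 0.07, adjusted p = 0.382) and Tbc1d24 (-0.12 ± 0.09, adjusted p = 0.580).

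The chloride, calcium and proton channels that share the lysosomal membrane with the pump (10 tested) had 0 called, with 0, 2 and 3 at an unadjusted p under 0.05 and medians of -0.04, -0.06 and -0.11. In C10 against CRS the smallest p belonged to Mcoln1, a calcium channel (-0.25 ± 0.08, edgeR adjusted p = 0.169), and Clcn7, a chloride-proton exchanger (-0.23 ± 0.10, adjusted p = 0.363). In C10 against CON they were Clcn7 (-0.38 ± 0.11, adjusted p = 0.152) and Tpcn1 (-0.40 ± 0.11, adjusted p = 0.162), and in CRS against CON Tpcn1 (-0.18 ± 0.11, adjusted p = 0.480) and Tmem175 (-0.15 ± 0.10, adjusted p = 0.512).

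Of Ragulator, the Rag GTPases and their partners (13 tested), 1 was called in C10 against CRS, 7 had an unadjusted p under 0.05 and the median was -0.24. The called gene was Flcn, a Rag GTPase activator, which had 37.4 to 47.0 CPM in C10 and 60.1 to 79.7 CPM in CRS (-0.70 ± 0.09; edgeR adjusted p = 0.00246). In CRS against CON 0 were called and 5 had an unadjusted p under 0.05, among them Flcn (0.51 ± 0.09, adjusted p = 0.115) and Lamtor4 (0.57 ± 0.19, adjusted p = 0.227). In C10 against CON 0 were called and 5 had an unadjusted p under 0.05, with Fnip2 at -0.56 ± 0.19 (adjusted p = 0.240) and Rragc at -0.15 ± 0.05 (adjusted p = 0.249).

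The MiT/TFE factors (4 tested) had 0 called in the 3 comparisons and 1 gene at an unadjusted p under 0.05 in all, Mitf in C10 against CON (-0.50 ± 0.19, edgeR adjusted p = 0.273). Their medians were -0.20, -0.08 and -0.24. In C10 against CRS Tfe3 measured -0.09 ± 0.10 (adjusted p = 0.769) and Mitf -0.13 ± 0.19 (adjusted p = 0.835), and in CRS against CON Mitf measured -0.37 ± 0.19 (adjusted p = 0.390) and Tfec -0.32 ± 0.35 (adjusted p = 0.702). Tfeb was second by p in C10 against CON (-0.16 ± 0.12, adjusted p = 0.592).

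Lysosomal hydrolases need the acid the pump makes, and they were listed together with lysosomal membrane proteins (22 tested). In C10 against CRS all 22 stood below 0, with a median of -0.41. Of these 1 was called (Cd63, a tetraspanin) and 17 had an unadjusted p under 0.05. In C10 against CON all 22 were also below 0, with a median of -0.52 and 3 called: Ctsd and Hexa, hydrolases, and Lamp1, a membrane protein. The medians of the 9 V0 and accessory genes were -0.30 and -0.22 in these comparisons. In CRS against CON 18 of the 22 lay below 0 (median -0.10, 0 called and 0 at an unadjusted p under 0.05), whereas 7 of the 9 V0 and accessory genes lay above.

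**Figure D4:**
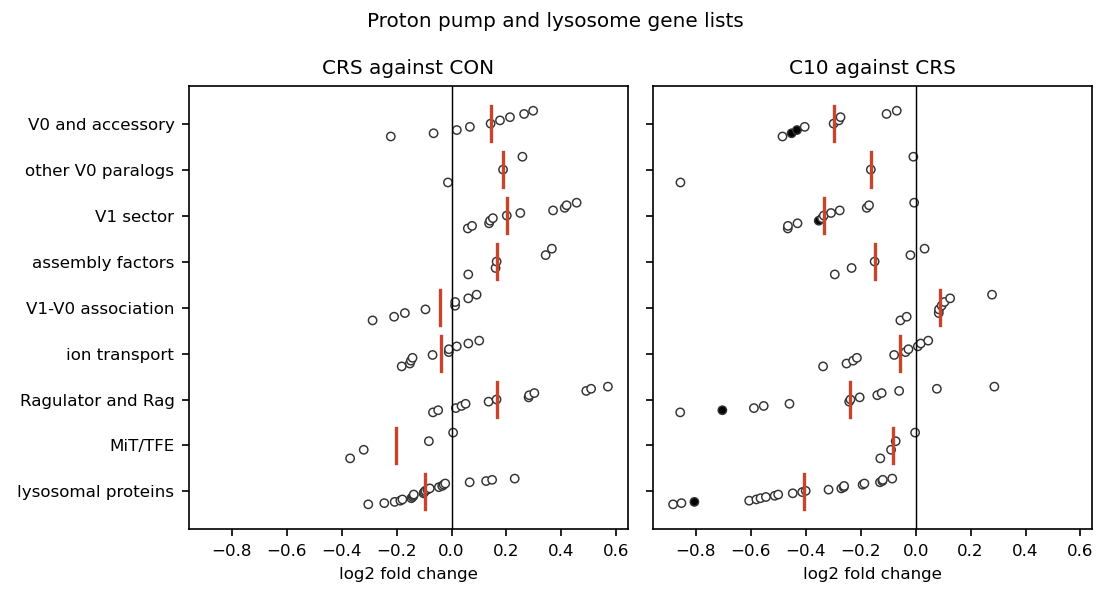
Log2 fold change (horizontal axis, edgeR) of each tested gene of the proton pump and lysosome lists, at left for CRS against CON and at right for C10 against CRS; red lines are medians and filled points have an adjusted p under 0.05. In C10 against CRS the medians of the V0 and accessory genes (-0.30), the V1 sector (-0.33) and lysosomal proteins (-0.41) lie below 0, and that of the V1-V0 association factors is 0.09.

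The 9 genes did not vary together in all pairs once the group means were removed. Over the 18 libraries the within-group correlation of log2 CPM ran from -0.72 to 0.74 in the 36 pairs, with a median of 0.23, and 4 pairs passed by r (permutation within groups, adjusted over the pairs). By rho 4 pairs passed as well, of which 3 are the same: Atp6v0b with Atp6ap2 missed the threshold, and Atp6v0d1 with Atp6ap2 passed (rho = 0.69, permutation p = 0.00296, adjusted p = 0.0355, with r = 0.49, permutation p = 0.0288, adjusted p = 0.0944, and r = 0.53 without the 2 farthest libraries). All CPM values of a library share its scaling. The ring proteolipids Atp6v0b and Atp6v0c gave r = 0.74 and rho = 0.68 (permutation p = 0.00195 and 0.0054, adjusted p = 0.0234 and 0.0486), and r = 0.66 without the 2 libraries farthest from the median. Atp6v0b gave r = 0.74 and rho = 0.74 with Atp6ap1 (permutation p = 0.00018 and 0.00124, adjusted p = 0.00648 and 0.0223; r = 0.64 without those 2) and r = 0.59 and rho = 0.62 with Atp6ap2 (permutation p = 0.00335 and 0.00756, adjusted p = 0.0301 and 0.0511; r = 0.62).

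The fourth pair was opposed: Atp6v0d1 and Tcirg1 gave r = -0.72 and rho = -0.74 (permutation p = 0.00047 and 0.00094, adjusted p = 0.00846 and 0.0223), and r = -0.62 without the 2 farthest libraries. Tcirg1 followed summed macrophage markers, with r = 0.90 and rho = 0.88 over the 18 libraries within groups. The permutation p of 1e-05 for each is the smallest the resampling can give (adjusted over 108 relations p = 0.00108), and r was 0.87 without the 2 farthest libraries. Atp6v0d1 went the other way, with r = -0.74 and rho = -0.74 (permutation p = 0.0004 and 0.00064, adjusted p = 0.00725 and 0.00691; r = -0.70).

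The macrophage sum, of 10 markers none of which was at 0 throughout, lay between 581 and 1326 CPM in CON, between 248 (CRS 2) and 1353 (CRS 1) in CRS and between 415 and 821 in C10, with medians of 926, 629 and 468. CRS 2 also had the lowest Tcirg1 level of all libraries, 33.8 CPM. Of these markers 8 of 10 lay below 0 in C10 against CRS (median -0.38) and 10 of 10 in both comparisons with CON (medians -0.42 for CRS and -0.75 for C10); 0 were called by edgeR, with 1 at an unadjusted p under 0.05 in each comparison with CRS and 6 in C10 against CON. The 2 called genes did not pass for this relation: r = -0.46 for Atp6ap2 (rho = -0.53) and -0.35 for Atp6v0c (rho = -0.39; permutation, adjusted p = 0.238 and 0.309 for r).

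**Figure D5:**
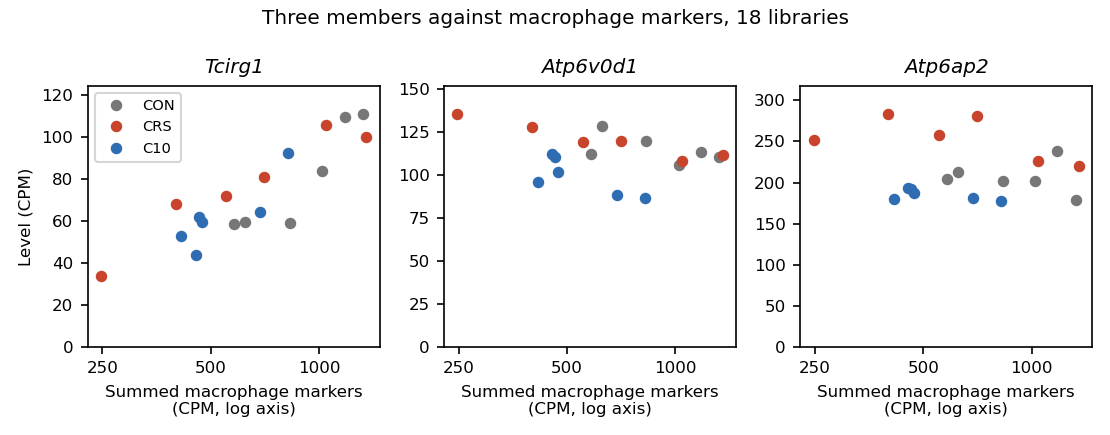
Level in CPM (vertical axes, from 0) of Tcirg1, Atp6v0d1 and Atp6ap2 against the summed CPM of 10 macrophage markers (log axis) in the 18 libraries, coloured by group. Tcirg1 is higher where the markers are higher (within-group r of 0.90), Atp6v0d1 has an r of -0.74 and Atp6ap2 of -0.46.

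The mean of the standardised log2 CPM of the 9 genes gives their common profile. It lay at -1.13 to -0.25 in the C10 libraries, at -0.16 to 0.83 in CON and at 0.37 to 1.09 in CRS. Of 14885 genes outside the lists, those with the profile most like it over the 18 libraries were Dpp7, a vesicular peptidase (Pearson r 0.94, and 0.75 within groups), Clta, a clathrin light chain (0.93 and 0.71), Uap1l1 (0.91 and 0.51), Anxa5, a phospholipid-binding protein (0.90 and 0.69), and Fuca2, a fucosidase (0.90 and 0.49). The most opposed were Il33, an alarmin cytokine (-0.89 and -0.42), and Galnt15, a glycosyltransferase (-0.89 and -0.54). These are ranks and carry no test, and each r over the 18 libraries includes the differences between the groups.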

How the data were processed

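Poly(A)-selected RNA of mouse nasal mucosa was sequenced in 18 libraries, 6 per group, with a kit not stated to keep the strand, per the labels' protocols. The deposited table gives raw read counts per gene made by the authors; the build is mm10, per the submitters' processing notes, and no source used here gives the aligner, counter or annotation release. The authors also deposited FPKM made from these counts and the gene lengths in the file, with implied library sizes between 0.877 and 1.081 of the summed counts; FPKM was used for levels between genes, shares of a subunit and an alternative test. Genes that overlap the 9 on either strand had at most 2 counts in a library.

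Counts were tested in R 4.3.3 with edgeR 4.0.16 (filterByExpr by group, TMM, quasi-likelihood F-test, two-sided, 18 libraries with 1 mean per group, 15 residual degrees of freedom), with Benjamini-Hochberg adjustment over 18291 genes and a threshold of 0.05. CPM uses TMM-scaled library sizes. The floor of 3 counts lies between 0.163 and 0.193 CPM, depending on the library, and allows for counting error alone. Alternatives were RLE factors, no filter, 1 CPM in 6 libraries, a replicate block, only the 2 groups compared, DESeq2 1.42.0, limma 3.58.1 (voom with quality weights, and log2 of FPKM plus 1 or 0.1), and leaving out libraries. Correlations used log2 CPM (prior count 2) centred within groups and 100000 permutations within groups (scipy 1.17.1, Python 3.11.15).

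The fit was tested on simulated data in which 100 genes differed 1.4-fold and another 100 differed 2-fold. It found 23 and 69 of these in CRS against CON (5 false calls, 18104 genes), 19 and 63 in C10 against CRS (3 false, 18096 genes) and 21 and 64 in C10 against CON (4 false, 18111 genes). Most changes of the smaller size were therefore missed among these genes, which were drawn at random and keep their own levels and spreads. The shares found do not give the power for the V0 and accessory genes. No library repeats another: chi-square over degrees of freedom was at least 12.5 in each of the 153 possible pairs.

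The 9 genes and all lists were chosen with earlier results of these data known. All 9 and the 3 other V0 paralogs are named whatever their values; of the other pump lists, called genes are named or, where none was called in a comparison, the 2 of smallest p as values. Genes of the lysosomal protein list were named when called and the epithelial markers in full, outside this rule. The genes most like the profile are the 5 highest and 2 lowest by r. Promoter sequences are from RefSeq.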

Additional observations from a re-analysis of the deposited data

Results flagged for a closer look

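Each of the 9 genes was examined in each group of 6 libraries for a single library far from the others, which gives 27 sets of values; chance alone marks about 1 set in 20. In 1 of the 27 a library stood apart: Atp6ap1 in CON, where CON 5 measured 258 CPM and the other 5 libraries 218 to 229 CPM. The gap was 0.723 of the group's range, above Dixon's limit for 6 libraries. CON 5 was the only CON library above the lowest CRS value of Atp6ap1, 245 CPM.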

How the results depend on the processing

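In C10 against CON the 29 alternatives kept the direction of all 9 genes and called 0. In C10 against CRS the 2 calls became 3 with RLE factors, 3 with at least 1 CPM in 6 libraries (both add Atp6v0b), 1 with no filter, 0 with only the 2 groups compared, 5 with DESeq2, 5 with limma-voom, 4 with limma on FPKM plus 1 or plus 0.1, and 0 to 4 on leaving out each library; with the replicate block the calls were 3 and the median -0.28, with Atp6ap2 (adjusted p = 0.0439), Atp6v0c (0.0405) and Atp6v0b (0.0405) called, and the block changed no other call of the 9. The numbers do not pair all libraries: same-numbered libraries deviated together (correlation over 0.1) in 4 of 6 pairs of CRS and C10 (-0.23 to 0.52), 3 of 6 of CON and CRS and 1 of 6 of CON and C10, and 4, 3 and 1 of 12 libraries correlated best with their own number. Over all genes the calls lower and higher in C10 against CRS were 12 and 3 with edgeR and 232 and 102 with DESeq2. With limma-voom they were 321 and 227. The share of all genes called lower was 0.0875% with RLE factors, 0.1% with 1 CPM in 6 libraries and 0.0254% with no filter. It was 0.0394% with only the 2 groups, 0.0984% with limma on FPKM and 0.0547% with the block. On leaving out each library it was 0.0217% to 0.308%. The cause of these differences was not tested. The median of the 9 was -0.41 without CRS 2 and 5, -0.46 without CRS 1, 2 and 5, and -0.46 to -0.28 on leaving out each library. In CRS against CON the count of 0 became 1 with DESeq2 and with limma-voom and 0 to 2 on leaving out each library. Directions turned for Atp6v0a1, Tcirg1 and Atp6v0a2, not called in the comparison concerned: in CRS against CON Atp6v0a1 was -0.095 without CRS 2 and 5, -0.122 without CRS 1, 2 and 5 and -0.042 to 0.093 on leaving out each library, and Tcirg1 was 0.169, 0.119 and -0.177 to 0.095; in C10 against CRS Atp6v0a1 was 0.0006 and 0.027 without those libraries, and Atp6v0a2 was -0.135 to 0.028 on leaving out each library. In all 214 of 261 values in C10 against CRS and 247 of 261 in CRS against CON kept their direction and side of the threshold.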

Other observations

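Subunit genes of V0 related to marker sums of other cell types with either sign. Of 108 relations between the 9 genes and marker lists within groups, 28 passed by r (permutation, adjusted p under 0.05), 12 positive and 16 negative. The set that passed by rho is not the same. Relations of 4 genes that differ in role are given here in detail. Atp6v0a1, not among them, was opposed to osteoclast and osteoblast markers (r = -0.71 and -0.70, permutation adjusted p = 0.0136 and 0.0110). Tcirg1 was lower where mature olfactory neuron markers were higher (r = -0.83, rho = -0.84; permutation p = 6e-05 and 7e-05; adjusted p = 0.00324 and 0.00243; r = -0.82 without the 2 farthest libraries) and also had a negative relation with ionocyte markers, cells rich in plasma membrane pumps (r = -0.76, rho = -0.78; permutation p = 0.00096 and 0.00056; adjusted p = 0.011 and 0.00691; r = -0.68). Atp6v0d1 was higher where sustentacular and Bowman gland markers were higher (r = 0.82, rho = 0.84; permutation p = 0.0001 and 9e-05; adjusted p = 0.0036 and 0.00243; r = 0.81). Atp6v0a2 followed endothelial markers (r = 0.80, rho = 0.69; permutation p = 0.00128 and 0.00515; adjusted p = 0.0122 and 0.0293), less so without the 2 farthest libraries (r = 0.58). Atp6ap1 was lower where ciliated cell markers were higher (r = -0.66, rho = -0.67; permutation p = 0.0046 and 0.00479; adjusted p = 0.0237 and 0.0287; r = -0.53). Atp6v0a2 also followed fibroblast markers (r = 0.72, and 0.71 without the 2 farthest libraries, permutation adjusted p = 0.0136). It was opposed to sustentacular and Bowman gland markers (r = -0.75, permutation adjusted p = 0.0136). Tcirg1 had relations of the same signs with these lists (r = 0.73 and -0.81), and Atp6v0d1 the reverse (r = -0.70 and 0.82). The relations therefore do not single out a cell type for a gene. Values of a library share its scaling, and marker sums of different cell types are not independent of each other in a tissue piece.

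The summed ionocyte markers lay between 310 and 418 CPM in CON, between 279 and 557 in CRS and between 343 and 434 in C10. Their medians were 365, 403 and 419 CPM, in that order. The 5 markers were split in C10 against CRS, with 3 below 0 and 2 above (median -0.08). By edgeR 0 were called there, and 1 was lower and 1 higher at an unadjusted p under 0.05. All 9 genes had their lowest mean in C10. The part of ionocyte content in this was not tested. Osteoclast markers summed to 192 to 504 CPM in CON, 86.3 to 346 in CRS and 106 to 302 in C10, and Tcirg1 followed them within groups (r = 0.73, rho = 0.73; permutation p = 0.00136 and 0.00133; adjusted p = 0.0122 and 0.0103; r = 0.73), while Atp6v0d1 was opposed (r = -0.79, rho = -0.77; permutation p = 0.00037 and 0.00062; adjusted p = 0.00725 and 0.00691; r = -0.77).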
